A study of Mus musculus with 6 samples.

Results

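The SLAM family is a set of immunoglobulin-type surface receptors of blood cells, here 9 genes of 30065 named genes measured on the arrays: Slamf1, Slamf6, Slamf7, Slamf8, Slamf9, Cd48, Cd84, Ly9 and Cd244a. They were taken by symbol from the platform's annotation, in which Cd244a still has its older symbol Cd244, and each had 1 row, so that none had to be chosen among rows. The family was picked with the difference between leukaemic and control mice already known, so its values in that comparison are a description and carry no test. The samples were megakaryocytes, the large polyploid marrow cells that shed platelets, of female C57 mice. They were sorted from bone marrow by high side scatter, high CD41 and a DNA content of at least 8N, with 3 arrays from mice with acute myeloid leukaemia (AML) induced by MLL-AF9, a fusion oncogene, and 3 from healthy controls. The labels give neither the animals' age, nor how MLL-AF9 was introduced, nor whether marrow was pooled. Arrays of 1 group are labelled as biological replicates, without saying which mice they came from, so p-values describe the spread among these sorts.

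SLAM receptors bind one another between touching cells. Most bind a copy of themselves, whereas CD244 binds CD48, which has no cytoplasmic part and is held in the membrane by a lipid anchor. The tails of most family members carry tyrosine motifs that recruit the small adaptors SAP, EAT-2 and ERT, which switch the signal between activation and inhibition, while SLAMF8 and SLAMF9 have short tails without them. In mouse marrow the family is best known as a sorting code, in which CD150, the product of Slamf1, marks stem cells and megakaryocyte progenitors, and CD48 marks most other progenitors.

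Of the 9 genes, 8 were lower in AML, with no overlap between the 3 AML and the 3 control values, and 1, Slamf1, overlapped. Slamf7 and Cd244a differed by more than 1 on the log2 scale also against the background level described below, Slamf6 was not above that level on any AML array, and Slamf8, Cd48, Ly9, Cd84 and Slamf9 differed by less than 1 on the log2 scale. In the fit over all genes (limma, Benjamini-Hochberg adjusted p of 0.05), 7 of the 9 passed as lower and 0 as higher, with 0 higher also at an unadjusted p of 0.05. Slamf1 and Cd48 did not pass. Over 14 refits with other settings, the calls of Slamf9 and Ly9 held in 8 and 7, that of Cd84 in 13, and Cd48 passed in 3. Over all genes 6.25% passed as lower and 4.49% as higher, and the AML values lay wholly below the control values in 13.1% of genes. Nothing is read from these counts, since the same comparison picked the family. The median difference of the 9 was -0.66 against +0.11 over all genes, so that, relative to the shift of all genes, it was -0.76. The family's count dropped to 4 when control array 3 was left out and was between 5 and 7 when any other array was.

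All values are deposited log2 expression, given as mean ± SD (n = 3), and differences are AML minus control. Array medians over genes were 5.29 to 5.32 in AML and 5.16 to 5.24 in control. As a measure of background, the 95th percentile of 1718 olfactory and vomeronasal receptor genes, which are dim here, was taken on each array. It was 5.59, 5.76 and 6.24 on AML arrays 1 to 3 and 5.60, 5.19 and 5.11 on control arrays 1 to 3, so that it was higher on AML array 3 than on any other. The part of this shift in the differences below was not tested. All 9 genes were above it on all 3 control arrays. In bulk sorts, fewer cells of a type and less RNA per cell cannot be told apart.

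The members lie on 1 chromosome, with Slamf9 and Slamf8 apart from the others, and most were lower together. The sequence before the start site is shown for Slamf7 and Cd244a, whose differences were the largest also against the background level. It is shown as well for Slamf6, which was not above background in AML, and for Slamf1, the gene that was not lower. These are the 250 bases before the start site in RefSeq (build GRCm38.p6), 5′ to 3′ on the gene's strand, and capitals mark CpG dinucleotides. The window of Slamf7 lies at chr1:171649000-171649249 (- strand), that of Slamf6 at chr1:171917212-171917461 (+ strand), that of Cd244a at chr1:171558943-171559192 (+ strand) and that of Slamf1 at chr1:171766882-171767131 (+ strand).
Slamf7: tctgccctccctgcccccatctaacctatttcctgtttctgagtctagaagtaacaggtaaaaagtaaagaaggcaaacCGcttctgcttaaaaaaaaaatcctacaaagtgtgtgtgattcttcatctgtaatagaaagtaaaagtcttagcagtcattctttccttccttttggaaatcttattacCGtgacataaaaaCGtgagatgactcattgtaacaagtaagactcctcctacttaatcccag
Slamf6: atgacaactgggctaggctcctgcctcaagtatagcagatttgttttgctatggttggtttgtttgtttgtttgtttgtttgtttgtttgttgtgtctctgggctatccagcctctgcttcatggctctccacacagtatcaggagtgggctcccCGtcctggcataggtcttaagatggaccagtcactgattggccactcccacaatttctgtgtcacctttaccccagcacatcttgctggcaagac
Cd244a: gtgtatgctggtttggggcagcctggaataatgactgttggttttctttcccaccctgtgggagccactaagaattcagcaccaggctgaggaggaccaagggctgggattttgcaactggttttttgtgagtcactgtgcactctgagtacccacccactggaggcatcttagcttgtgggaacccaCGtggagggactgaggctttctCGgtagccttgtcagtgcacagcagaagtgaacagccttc
Slamf1: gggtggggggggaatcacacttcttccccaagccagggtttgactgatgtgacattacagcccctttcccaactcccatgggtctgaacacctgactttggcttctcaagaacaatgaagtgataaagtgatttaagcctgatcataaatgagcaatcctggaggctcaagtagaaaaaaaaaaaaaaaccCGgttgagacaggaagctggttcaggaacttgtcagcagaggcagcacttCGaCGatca
RefSeq's table held such a sequence for 8 of the 9 genes, not for Ly9. Slamf6 held 1 CpG, Cd244a 2, Slamf7, Slamf1 and Cd84 3 each, Cd48 and Slamf8 4 each and Slamf9 6, against a median of 6 over 32851 promoters. At most 4 were found in 7 of the 8, and in 44.4% of all promoters. Slamf1 thus did not stand apart from the others in this count.

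Short motifs of blood cell factors were searched on both strands of the same windows, as letters only. The RUNX motif TGTGGT was found in Cd48 and Cd84, and in 14% of all promoters. The PU.1-type motif GAGGAAG was found in Slamf9, where it ends 2 bases before the start site, and in 10.6% of all promoters. The repeat motif of interferon regulatory factors was found in Slamf8, as TTTCGCTTTC on the gene's strand 15 to 6 bases before the start site, and in 2.98% of all promoters. The C/EBP-type motif TTGCNNAA was found in Cd244a (9.56% of all promoters), and the E-box CAGCTG in Slamf8 and Slamf9 (13%). The ETS core CGGAAG, the GATA motif AGATAA and the TATA box TATAAA were in none of the 8 windows, and in 13.6%, 9.99% and 12.4% of all promoters. None of the 8 motifs was in the windows of Slamf7, Slamf6 or Slamf1. No matches overlapped one another, and a match is a description of letters.

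**Figure D1:**
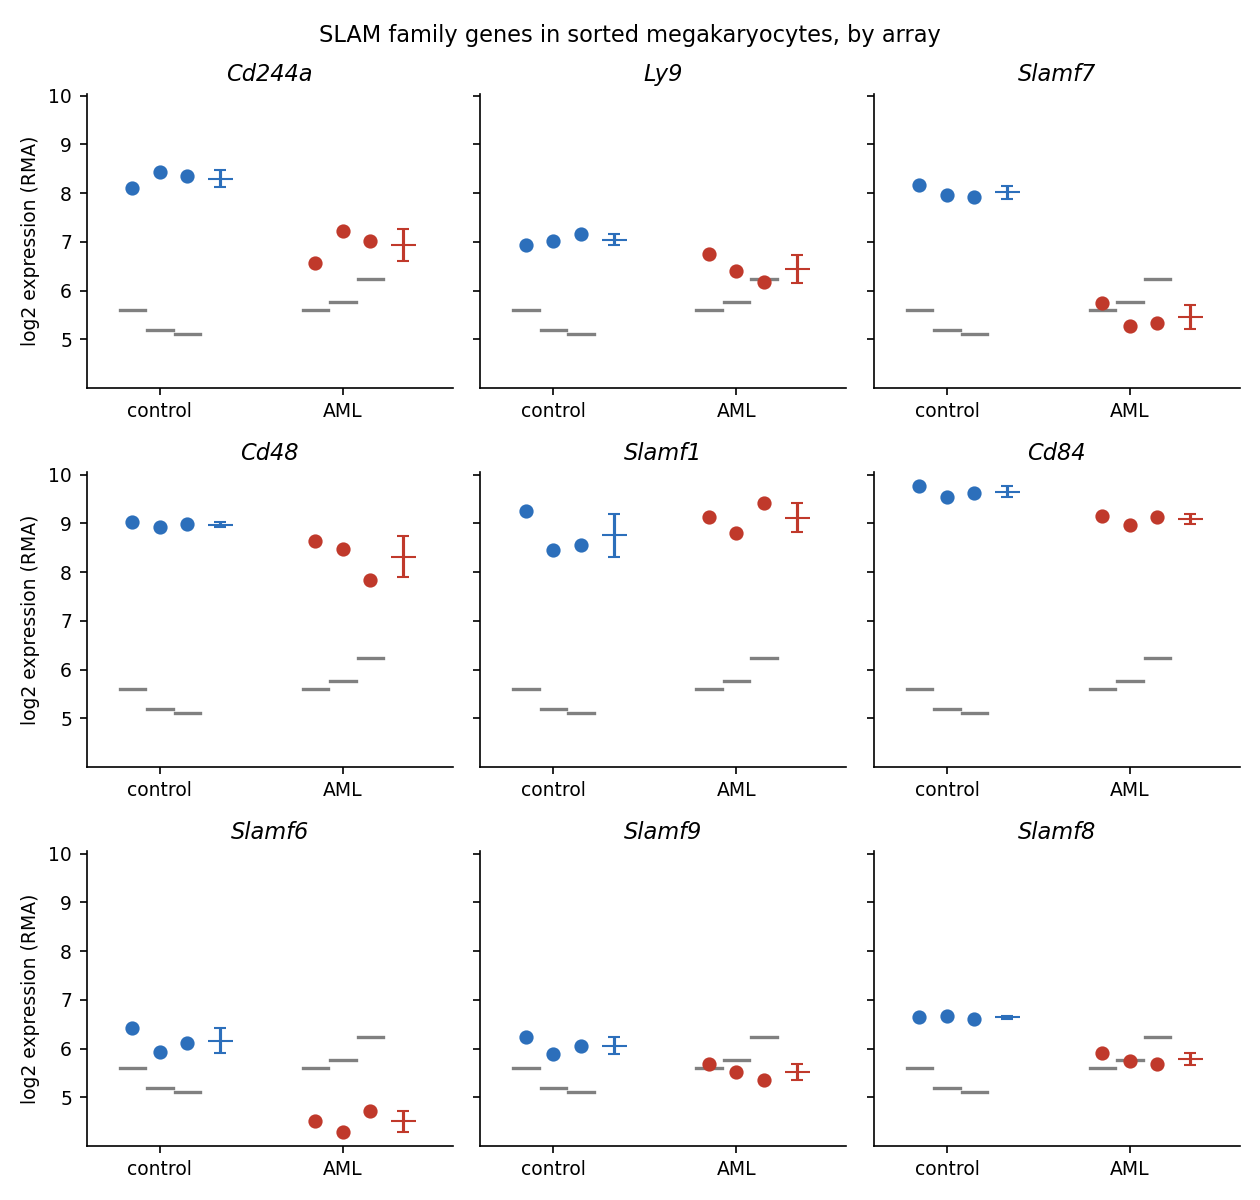
Each panel shows 1 gene of the family, with log2 expression on the vertical axis, 1 point per array (array 1 to 3 from left to right within a group), and beside them the mean with the SD as error bar. Grey ticks mark the background level of each array. Slamf1 is the panel in which the groups overlap, and the AML values of Slamf6 lie below all their ticks.

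Among the receptors that bind themselves, Slamf7 encodes a receptor of natural killer cells, plasma cells and activated macrophages that signals through EAT-2. It stood at 8.17, 7.96 and 7.92 on control arrays 1 to 3 and at 5.74, 5.28 and 5.34 on AML arrays 1 to 3. The control arrays were thus close together, and the highest AML value lay 2.17 below the lowest control value. The means were 8.01 ± 0.13 and 5.45 ± 0.25, a difference of -2.56 or 5.89-fold. AML arrays 2 and 3 were not above their background level, and with these taken at that level the fold was 4.28.

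Slamf6, whose product Ly108 is a receptor of lymphocytes, stood at 6.43, 5.92 and 6.12 in control and at 4.52, 4.28 and 4.71 in AML. No AML array was above its background level, whereas each control array was. The measured means were 6.16 ± 0.26 and 4.50 ± 0.22, a difference of -1.65, but against the background level of the AML arrays the level was at least 1.22-fold lower. With a background level of 5.51 for all arrays, chosen after seeing the data, this bound was 1.56-fold.

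Cd84 and Ly9 were lower by smaller amounts. Cd84, a receptor found on platelets as well as on leukocytes, stood at 9.77, 9.55 and 9.62 in control and at 9.16, 8.97 and 9.13 in AML. Its groups were tight and apart, at 9.65 ± 0.11 and 9.09 ± 0.10, a difference of -0.56 or 1.47-fold. Ly9, a lymphocyte receptor, stood at 6.94, 7.02 and 7.17 in control and at 6.75, 6.41 and 6.17 in AML. Here AML array 1 came within 0.19 of the control arrays, and AML array 3 was under its background level. Its means were 7.05 ± 0.12 and 6.44 ± 0.29, a difference of -0.60 or 1.52-fold, which was 1.49-fold with AML array 3 taken at that level.

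Slamf1, the gene of CD150, was the exception. It stood at 9.26, 8.45 and 8.56 in control and at 9.13, 8.81 and 9.41 in AML. Control array 1 was above AML arrays 1 and 2, so that the groups overlapped, and the spread within control was the widest of the 9 genes. The means were 8.76 ± 0.44 and 9.12 ± 0.30, a difference of +0.36, which was +0.24 after each array was centred on its median and +0.61 without control array 1. It was +0.21 without AML array 3 and also without control array 2. All 6 values were above the background level of their arrays.

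In the receptor and ligand pair, both genes were lower in AML without overlap between the groups. Cd244a passed as lower and Cd48 did not, which is a description and no test of 1 gene against the other. Cd244a, the gene of the receptor 2B4, stood at 8.10, 8.43 and 8.36 in control and at 6.57, 7.22 and 7.01 in AML. All of these were above background, and the gap between the groups was 0.88. The means were 8.30 ± 0.17 and 6.93 ± 0.33, a difference of -1.36 or 2.57-fold. Cd48, the ligand, stood at 9.03, 8.92 and 8.98 in control and at 8.63, 8.48 and 7.84 in AML. Its control arrays differed by 0.11, while AML array 3 lay apart from the other AML arrays. The means were 8.98 ± 0.05 and 8.32 ± 0.42, a difference of -0.66 or 1.58-fold, which became -0.42 without AML array 3. Cd2, the gene of a further partner of CD48 in mice, stood at 5.08 ± 0.22 in control and 4.53 ± 0.23 in AML (limma adjusted p = 0.0631). It was above background on 1 of the 6 arrays, so that no fold is given, and it passed as lower with array weights, quantile normalization, median centring and cyclic loess (adjusted p 0.0189 to 0.0365).

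The members without tyrosine motifs in their tails, Slamf8 and Slamf9, were both lower. Slamf8, a receptor of macrophages that dampens their oxidase, stood at 6.64, 6.66 and 6.61 in control and at 5.91, 5.75 and 5.68 in AML. The control values spanned 0.06, and the gap between the groups was 0.70. Its means were 6.64 ± 0.03 and 5.78 ± 0.12, a measured difference of -0.86 or 1.81-fold. AML arrays 2 and 3 were not above background, and with these taken at that level the fold was 1.59. Slamf9 stood at 6.23, 5.88 and 6.05 in control and at 5.68, 5.52 and 5.36 in AML. The gap between its groups, 0.20, was close to the SD of each group. Its means were 6.05 ± 0.18 and 5.52 ± 0.16, a measured difference of -0.53 or 1.45-fold. AML arrays 2 and 3 were again not above background, and with these taken at that level the fold was 1.12.

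Within the groups the members were not highest on the same array throughout. AML array 1 gave the highest AML value for 6 of the 9 genes and control array 1 the highest control value for 6. AML arrays 2 and 3 gave the lowest AML value for 4 genes each. The genes nearest to Slamf7 in profile over the 6 arrays, each centred on its own mean, were H2-Eb1, Cd86, H2-Aa, Bcl2a1a and Ccl7, at Euclidean distances of 0.282 to 0.352 log2 units. H2-Eb1 and H2-Aa encode chains of MHC class II, Cd86 a ligand for T cell costimulation, Ccl7 a chemokine, and Bcl2a1a is one of several near-identical copies, so that its own value is uncertain. Their differences were -2.71, -2.48, -2.52, -2.31 and -2.48, in the order in which H2-Eb1, Cd86, H2-Aa, Bcl2a1a and Ccl7 are named. Ccl7 was not above background on any AML array, and H2-Aa and Slamf7 itself were above it on 2 and 1 of the 3, so that the likeness rests in part on values at background. The genes were picked for likeness, so that no test belongs to them.

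All 9 members lie on mouse chromosome 1, in the order Cd244a, Ly9, Slamf7, Cd48, Slamf1, Cd84, Slamf6, Slamf9 and Slamf8. The longest runs of other measured genes among them lay between Slamf6 and Slamf9 (Vangl2 to Pigm) and between Slamf9 and Slamf8 (Igsf9 to Vsig8). The genes that lie among and around the members were not picked by the comparison and were tested. Of 43 measured neighbours, namely 23 between the outermost members and 10 on each side, 3 fell and 0 rose. That is 6.98% lower against 6.25% of all genes, and their median difference was +0.08 against +0.11. At an unadjusted p of 0.05, 7 of the 43 were lower and 5 higher. Of the 23 between the outermost members, 6 were lower and 1 higher at that p. Pea15a, a death effector domain phosphoprotein, fell from 7.07 to 6.24, a difference of -0.83 (SE 0.11, adjusted p = 0.00538). Kcnj10, a potassium channel, fell from 6.81 to 5.84, by -0.97 (SE 0.14, adjusted p = 0.0093), or 1.68-fold with AML array 3, which was not above background, taken at that level. Arhgap30, outside the members' span, fell from 7.27 to 6.57, by -0.70 (SE 0.11, adjusted p = 0.0116). The call of Arhgap30 was lost without control array 2 or 3. After median centring, 6 of the 43 passed as lower.

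The genes directly beside a member were Itln1, Mir7683, Tma7-ps, Gm22950, Vangl2, Pigm, Igsf9, Vsig8 and Fcrl6, and 0 of these 9 passed (1 higher, Fcrl6, and 2 lower, Tma7-ps and Pigm, at an unadjusted p of 0.05). Vangl2, a planar polarity gene next to Slamf6, stood at 5.89 against 5.83, a difference of +0.06 (adjusted p = 0.55). Igsf9, next to Slamf9, differed by +0.17 (adjusted p = 0.168) and Pigm, a gene of GPI anchor synthesis on the other side of Slamf9, by -0.28 (adjusted p = 0.0727). Pigm passed as lower after median centring (adjusted p = 0.0399) and cyclic loess (adjusted p = 0.0438). Of the 43 neighbours, 20 were at or below background on all 6 arrays, among them Itln1 and Fcrl6, so that a difference could not be measured there.

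**Figure D2:**
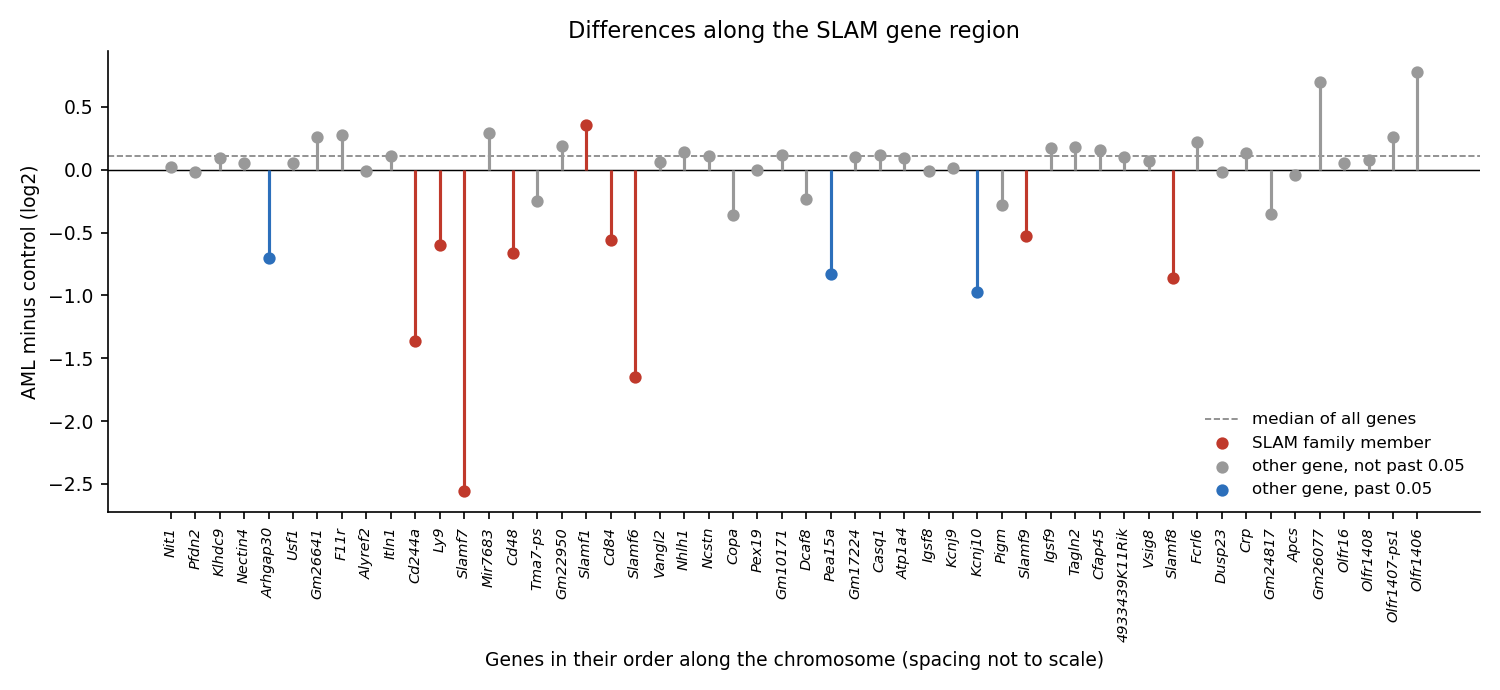
Genes of the SLAM region are placed in their order along the chromosome, and the vertical axis gives AML minus control on the log2 scale. Red marks the 9 family members, blue the 3 neighbours past an adjusted p of 0.05, grey the other neighbours, and the dashed line the median of all genes at +0.11. Most neighbours stand near the dashed line, among the members below 0.

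The genes of adaptors and enzymes that act on the tails of SLAM receptors were lower or not past the threshold, apart from that of SAP. Of 17 measured genes, 5 fell and 1 rose, or 29.4% and 5.88%, against 6.25% and 4.49% of all genes, and their median difference was -0.28. This list and those that follow were chosen with earlier results of these data known, so their shares are a description. Sh2d1b1, which encodes EAT-2, stood at 6.91, 6.71 and 6.89 in control and at 5.24, 5.48 and 6.10 in AML. No AML array was above its background level, whereas all control arrays were. The AML values were, however, above the lower background levels of control arrays 2 and 3 (5.19 and 5.11). Sh2d1b1 fell by 1.23 (SE 0.21, adjusted p = 0.0151), at least 1.96-fold. Sh2d1b2, which encodes the related adaptor ERT, fell from 5.71 ± 0.07 to 5.24 ± 0.07 (adjusted p = 0.0136), with all AML arrays below background, so that no fold is given. Sh2d1a, the gene of SAP, was called higher, at 3.57 ± 0.07 against 3.27 ± 0.03 (adjusted p = 0.0427). It was below background on all 6 arrays, and its call was lost when any 1 array was left out and under quantile normalization, median centring and cyclic loess.

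Fyn, the kinase that SAP recruits, fell from 7.54 ± 0.06 to 6.97 ± 0.29 (adjusted p = 0.048), and Lcp2, the gene of the scaffold SLP-76, from 9.65 ± 0.09 to 9.21 ± 0.08 (adjusted p = 0.0213). Rasa1, a GTPase-activating protein for RAS, fell from 5.94 to 5.43, with all AML arrays below their own background levels (adjusted p = 0.0122). Its AML values of 5.39, 5.37 and 5.52 were above the levels of control arrays 2 and 3. The phosphatase genes that act for the inhibitory signal did not pass. Inpp5d, encoding SHIP1, differed by -0.33 (95% CI -0.64 to -0.02, adjusted p = 0.14), and Ptpn6, encoding SHP-1, by -0.36 (95% CI -0.76 to 0.04, adjusted p = 0.179). Leaving out 1 array ended the call of Fyn in each case but AML array 3. It ended that of Sh2d1b1 for AML array 2 and control arrays 2 and 3, that of Sh2d1b2 for AML array 2 and control array 3, that of Lcp2 for AML array 2 and control arrays 1 and 2, and that of Rasa1 for control array 3. With AML array 2 or control array 3 left out, 1 gene of the list was lower, with control array 2 left out 2, and with control array 1 left out 3. It was 3 under quantile normalization and 3 under cyclic loess.

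The genes of phagocyte proteins that work with SLAMF1, SLAMF7 and SLAMF8 were partly lower as well. Of 15 measured genes, 5 fell (33.3%, against 6.25% of all genes) and 0 rose, with 0 higher also at an unadjusted p of 0.05. Their median difference was -0.44 against +0.11 over all genes. Cybb, the catalytic subunit of the phagocyte oxidase, stood at 10.28, 10.53 and 10.57 in control and at 8.65, 8.76 and 8.38 in AML. It fell 3.64-fold, by 1.86 (SE 0.13, adjusted p = 6.12e-04), while Cyba, its membrane partner, stood at 10.96 ± 0.03 and 10.90 ± 0.16 (adjusted p = 0.653). Fcer1g and Tyrobp, the signalling adaptors FcR gamma and DAP12 through which SLAMF7 acts together with the integrin Mac-1, fell by 0.59 (adjusted p = 0.00633) and 0.56 (adjusted p = 0.0337). Itgam, a chain of that integrin, stood at 9.17 ± 0.31 and 8.44 ± 0.26 (adjusted p = 0.0502). Sirpa, the receptor that restrains phagocytosis, fell by 0.87 (adjusted p = 0.0177), and its ligand gene Cd47 differed by +0.08 (adjusted p = 0.589). Uvrag, a partner of the kinase complex that SLAMF1 binds on phagosomes, fell by 0.77 (adjusted p = 0.0107), but by 0.24 with the mean of its rows (adjusted p = 0.108), while Becn1, the core of that complex, differed by -0.14 (adjusted p = 0.234). The call of Tyrobp was lost also when AML array 1 or control array 1 was left out, and that of Sirpa when AML array 2 was. When either control array 2 or control array 3 was left out, 2 genes passed as lower, Cybb and Fcer1g.

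**Figure D3:**
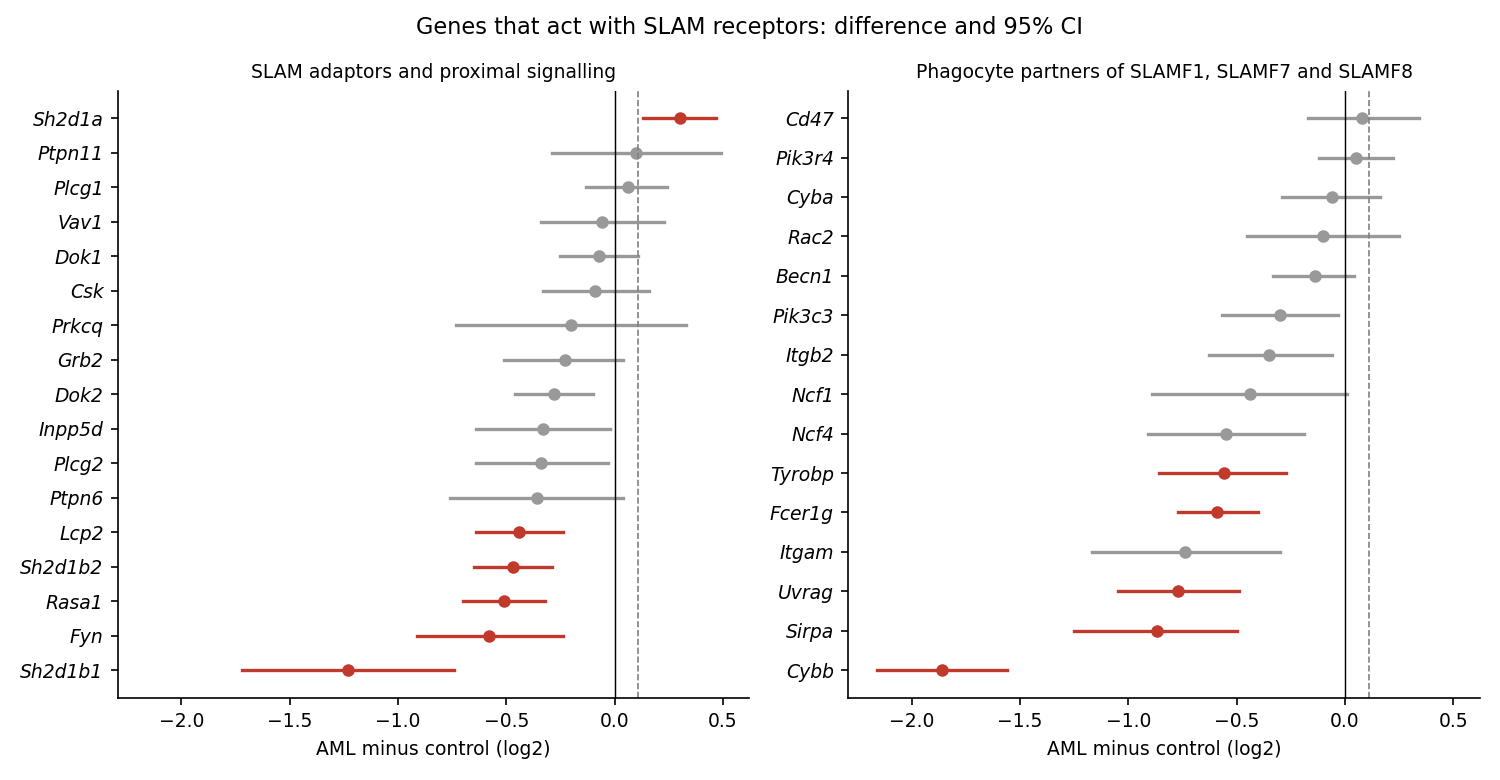
Each point is the difference, AML minus control on the log2 scale, of 1 gene that acts with SLAM receptors, with its 95% confidence interval from the fit over all genes. Red marks genes past an adjusted p of 0.05, and the dashed line the median of all genes. Sh2d1b1 at -1.23 and Cybb at -1.86 lie farthest to the left.

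Other receptors related to CD48 binding or to the same structural family were not past the threshold. Of 8 measured genes, namely Cd2, Cd226, Crtam, Cd96, Tigit, Cd160, F11r and Igsf8, 0 passed in either direction, with 1 lower (Cd2) and 0 higher at an unadjusted p of 0.05. Cd226, a receptor of platelets and killer cells, stood at 8.38 ± 0.47 and 8.51 ± 0.37 (adjusted p = 0.744). Crtam, Cd96, Tigit and Cd160 were at or below background on all 6 arrays. Of 8 measured genes that are sorted on together with CD150 and CD48, or mark the same progenitors, 1 rose and 2 fell. Cd34, a progenitor sialomucin, rose by 0.66 (adjusted p = 0.0264), Cd9, a tetraspanin of platelets, fell by 0.41 (adjusted p = 0.0396) and Fcgr3, an Fc receptor, by 0.59 (adjusted p = 0.0446). Kit, the stem cell factor receptor gene, stood at 7.03 ± 0.26 and 7.24 ± 0.23 (adjusted p = 0.377). The calls of Cd9 and Fcgr3 held without AML array 3 and in no other removal of 1 array, and that of Cd34 held only when AML array 3 or control array 3 was the one left out, and was lost under median centring.

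Markers of some other cells were lower like most of the family, while those of others were at background or moved in both directions. Their part in the family's differences was not tested. Megakaryocyte and platelet genes were bright in both groups. Of 16 measured, 0 passed in either direction, also at an unadjusted p of 0.05, and their median level on an array was 8.85 to 9.62 in AML and 8.85 to 9.22 in control. Ppbp and Pf4, encoding platelet chemokines, differed by -0.14 and -0.11. Macrophage and monocyte genes were lower. Of 14 macrophage genes 11 fell and 0 rose (median level 7.19 to 7.71 in AML and 8.52 to 8.85 in control), and of 10 monocyte genes 8 fell and 0 rose (6.38 to 6.73 and 7.50 to 7.67), with 0 higher in both lists also at an unadjusted p of 0.05. The macrophage count was 7 when AML array 2 was left out, and 3 when either control array 2 or control array 3 was. The 2 brightest genes of these lists were Cd68, at -0.79 (adjusted p = 0.0516), and C1qb, at -1.15 (adjusted p = 0.02), and Ly6c2, at +0.32 (adjusted p = 0.187), and Ms4a6c, at -1.31 (adjusted p = 0.00218). The call of C1qb was lost when AML array 2 or control array 2 or 3 was left out.

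Most neutrophil genes were lower too, and part of the eosinophil, of the basophil and mast cell, and of the dendritic cell genes. Of 12 neutrophil genes 10 fell (7.65 to 7.78 in AML and 9.54 to 9.92 in control), of 12 dendritic cell genes 5 (6.26 to 6.45 and 6.73 to 7.14), of 7 eosinophil genes 4 (8.25 to 8.81 and 9.08 to 9.35) and of 11 basophil and mast cell genes 5 (6.98 to 7.39 and 7.22 to 7.25), and none of these rose. At an unadjusted p of 0.05, 1 of the basophil and mast cell genes was higher and 0 of the other 3 lists. Differences were above 0 in 3 basophil and mast cell genes and below 0 in 8. In the dendritic cell list they were above 0 in 2 and below 0 in 10. There Clec9a, above background on all arrays, differed by +0.59 (adjusted p = 0.24) and Batf3 by -0.09 (adjusted p = 0.487). Zbtb46 and Xcr1 were at or below background on all arrays. The 2 brightest genes of each list were Ngp and Retnlg, H2-Ab1 and H2-Eb1, Prg2 and Prg3, and Prss34 and Mcpt8, with differences from -2.71 for H2-Eb1 to -0.44 for Prg2. Of these 8 genes Prg3 did not pass (adjusted p = 0.164), and the call of Prg2 held only when AML array 3 was the array left out. The eosinophil count was 2 when AML array 1, or else control array 2 or 3, was left out.

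Natural killer cell genes and part of the T cell genes were at background, whereas 8 of 11 B cell and 5 of 9 plasma cell genes were above it on all 3 control arrays. Of 9 natural killer cell genes, 7 were at or below background on all 6 arrays, including Ncr1, Klrb1c, Eomes and Prf1 (median level 4.55 to 4.75 in AML and 4.58 to 4.80 in control), and Ncr1 was called higher and Klrk1 and Klrd1 lower, all 3 of them among the 7. None of the list was higher with the replicate block or under quantile normalization, median centring and cyclic loess. The same held when any array other than control array 1 was left out. In each of these refits 2 of the list were lower. Among 10 T cell genes Cd3e, Cd3g, Cd8a and Cd28 were at or below background on all arrays, and 1 gene fell, Il7r, with 0 risen and 2 higher at an unadjusted p of 0.05. Il7r, the gene of an interleukin receptor chain, stood at 7.46 ± 0.05 in control and 5.33 ± 0.32 in AML, where no array was above background, so that it was at least 3.03-fold lower (adjusted p = 7.04e-04). Of 11 B cell genes 5 fell (5.27 to 5.53 and 5.60 to 5.85) and of 9 plasma cell genes 3 fell (5.39 to 5.48 and 6.01 to 6.21), with 0 higher in both at an unadjusted p of 0.05. Among these, Cd79b fell by 0.39 (adjusted p = 0.0483, a call that held only when AML array 1 was the array left out), and Xbp1 differed by -0.04. The other fallen B cell genes, Cd79a, Ebf1, Ms4a1 and Fcer2a, were above background on no AML array. Fcer2a was above it on no control array either. Of the fallen plasma cell genes, Prdm1 and Irf4 were above background on no AML array and Jchain on 1. With AML arrays not above background taken at that level, the fold was 1.11 for Cd79a and 1.21, 1.44 and 2.09 for Prdm1, Irf4 and Jchain. No fold is given for Ebf1, Ms4a1 and Fcer2a. The B cell count was 2 when AML array 2 or control array 1 or 2 was left out and 3 when AML array 3 or control array 3 was, and the plasma cell count was 1 when control array 2 was.

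Progenitor and stromal genes moved in both directions. Of 10 granulocyte-monocyte progenitor genes 2 rose, Ctsg by 0.95 (adjusted p = 0.0251) and Gfi1 by 0.59 (adjusted p = 0.012), and 3 fell. Fcnb fell by 2.78 (adjusted p = 3.81e-04), at 5.99-fold with AML array 3 taken at its background level, Igsf6 fell by 0.75 (adjusted p = 0.00261) and Irf8 fell by 0.66 (adjusted p = 0.0139). The brightest genes of the list, Elane and Mpo, differed by +0.33 (adjusted p = 0.0889) and +0.05 (adjusted p = 0.824). Of 11 endothelial and stromal genes 1 rose, Pdgfrb, by 0.40 (adjusted p = 0.0392), and 5 fell, namely Cdh5, Emcn, Stab2, Cxcl12 and Kitl. Their adjusted p ran from 0.0037 for Stab2 to 0.0384 for Kitl. Cdh5 was above background on 1 AML array and the other fallen genes on none. The brightest of that list, Pecam1 and Col1a1, differed by +0.48 (adjusted p = 0.0532) and +0.13 (adjusted p = 0.205). Pecam1 passed as higher in 6 of 14 refits, among them array weights, quantile normalization and cyclic loess (adjusted p 0.00836 to 0.0348). The calls of Igsf6, Fcnb, Stab2 and Cxcl12 held when any 1 of the 6 arrays was left out, those of Emcn in 5, Irf8 in 4 and Gfi1 in 4 of these, Ctsg in 3, Cdh5 in 2, Pdgfrb in 1 and Kitl in 0. That of Pdgfrb was also lost under quantile normalization, median centring and cyclic loess. Leaving out control array 2 left 0 risen progenitor genes, and leaving out AML array 1 or 2 or control array 3 left 1. Leaving out AML array 2 left 2 fallen stromal genes, and leaving out any control array left 3.

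**Figure D4:**
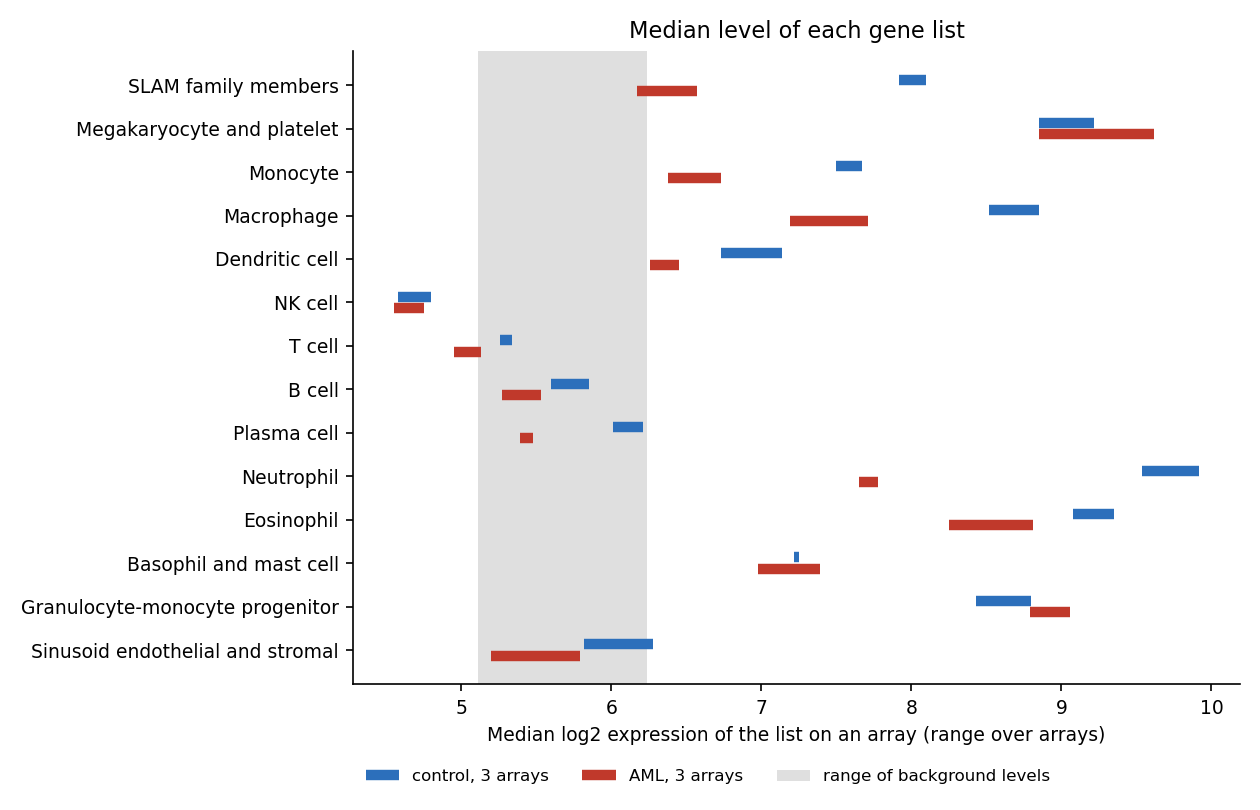
Bars span the lowest to the highest array of a group in the median log2 expression of each gene list, in blue for control and red for AML, with the range of the arrays' background levels in grey. The family's median, 7.92 to 8.10 in control and 6.17 to 6.57 in AML, is shown beside 13 marker lists, of which the natural killer cell list lies below the grey band in both groups. Levels of different lists are not comparable with each other.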

How the data were processed

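Per the labels' protocols, 250 ng of total RNA from each sort was turned into biotinylated cDNA for an Affymetrix array, with 3 AML and 3 control arrays. The authors deposited log2 values from RMA, which corrects background, normalizes by quantiles and sums up the probes of a row, per the submitters' processing notes, without a version. The array's genome build is not given in the sources used. Since RMA evens out the arrays' distributions over all rows, the true size of a change common to most rows cannot be read from these values. Among the genes used here a median difference of +0.11 remained.

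Of 72688 rows, 30604 had 1 gene symbol, 2146 several and 39938 none. Symbols were updated through RefSeq (22951 by gene number, 7353 by symbol, 298 by synonym), and the row with the highest mean was kept where a gene had several (428 genes). The values were fitted as deposited with limma (lmFit, eBayes), without a filter, as a two-sided comparison of the groups, and p was adjusted by Benjamini-Hochberg over all 30065 genes (threshold 0.05). The members and lists were chosen with earlier results of these data known. A fold against values below background uses that level as a floor.

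The named genes were all members, genes beside a member, the neighbours with the largest falls, pathway genes past the threshold with Sh2d1a, Sh2d1b1, Sh2d1b2, Fyn, Inpp5d, Ptpn6 and Cd2, the 2 brightest genes of each marker list, and the 5 genes most like Slamf7. Becn1, Cyba, Cd47, Itgam, Cd226 and Kit and other list members named were chosen after their values were seen. Alternatives were a replicate block, a variance trend, weighted arrays, 3 other normalizations (quantile, median, cyclic loess), dropping genes dimmer than the median gene, averaging rows of a gene, a 1.5-fold minimum and leaving out each array. R 4.3.3, limma 3.58.1, Python 3.11.15, pandas 2.3.3 and matplotlib 3.10.9 were used.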

Additional observations from a re-analysis of the deposited data

How the results depend on the processing

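The sign of each member's difference was the same in all 14 refits of the 9 genes, and the calls of Slamf6, Slamf7, Slamf8 and Cd244a held in each. These calls too are a description, since the same comparison picked the family. Over all genes, 206 passed as higher and 861 as lower with the replicate number as a block, 4840 and 3014 with array weights, 439 and 1126 with a 1.5-fold minimum, and 505 as higher under median centring. Leaving out 1 array gave 185 to 1640 higher and 782 to 1967 lower genes over all genes, 4 to 7 lower members, 2 to 4 lower neighbours, 1 to 5 lower and 0 higher adaptor genes, 2 to 5 lower phagocyte partners, and 0 to 1 higher and 0 to 2 lower progenitor gate genes. Of the neighbours, 1 was higher and 5 were lower with array weights and 6 were lower under median centring. Of the adaptor genes, 1 was lower with the replicate block, 3 under quantile normalization, 3 under cyclic loess and 1 with a 1.5-fold minimum, and 0 were higher with the block, the 1.5-fold minimum, these 2 normalizations, median centring and genes at or above the median level. Of the CD48-related receptors, 1 was lower with array weights, quantile normalization, median centring and cyclic loess. Of the phagocyte partners, 3 were lower with the replicate block and 8 with array weights. Of the progenitor gate genes, 0 were higher under median centring, 0 lower with the block and 1 lower with a 1.5-fold minimum. The causes were not tested.

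The arrays share replicate numbers, but deviations of same-numbered arrays from their group means correlated at -0.36, 0.14 and -0.29 over genes, so the numbers were not taken to pair samples. With the replicate block, 5 members passed as lower in place of 7. The number of arrays and the higher background level of AML arrays 2 and 3 limit what can be said of Slamf6, Slamf7, Slamf8 and Slamf9.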
